A study of Mus musculus with 12 samples.

Results

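The enzymes and carriers that handle glucose, glycogen and lactate were examined in the hearts of mice that lost CYB5R3 in adult cardiomyocytes. The group held 37 genes of the 53700 in the count table, chosen by name to cover glucose transport, glycolysis, the fructose bisphosphatases, glycogen turnover, and the production and transport of lactate. The rule used no measured value. A filter on low counts was passed by 36 of the 37, the exception being the liver-type fructose bisphosphatase Fbp1.

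Total RNA was sequenced from the whole heart of 12 mice, 6 in each of the groups ac-WT and ac-CYB5R3–KO. The ac-WT mice carried the genotype CYB5R3wt/wt with Myh6-CreERT2, and the ac-CYB5R3–KO mice CYB5R3fl/fl with Myh6-CreERT2, so that both groups expressed the inducible Cre recombinase and both received tamoxifen. Male mice aged 10 to 13 weeks were given 33 mg/kg/d tamoxifen for 5 days, and hearts for RNA were taken 5 days after the injections. The Myh6 promoter limits Cre to cardiomyocytes, so that fibroblasts, endothelial cells and other cells of the heart keep an intact Cyb5r3. Each library came from the heart of a different mouse.

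Glycolysis splits glucose into pyruvate in the cytosol and yields ATP without oxygen, and glycogen is the store of glucose that the cell can draw on. The adult heart burns mainly fatty acids and takes up glucose and lactate as further fuels. Many of the steps are catalysed by more than 1 gene, with a form enriched in striated muscle or heart and other forms that prevail in liver, brain or most tissues, which is why the genes were grouped both by step and by form.

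Total counts per library were between 43393183 and 53754284, and edgeR put the biological coefficient of variation between mice at 26.5%. Levels are given in CPM, the read count relative to the library size scaled by its TMM factor. Cyb5r3 itself lay between 81.9 and 185 CPM in ac-WT hearts and between 42.0 and 67.4 CPM in ac-CYB5R3–KO hearts, with no overlap (log2 fold change −1.22 ± 0.19 SE, adjusted p = 0.0450). Two-sided tests of the quasi-likelihood model of edgeR were used throughout, and p were adjusted by Benjamini and Hochberg across all 17847 genes with enough counts. Mice 2 and 3 of the ac-WT group stood apart from the others. Their TMM factors were 0.570 and 0.723, those of the remaining ac-WT hearts 0.988 to 1.13, and those of ac-CYB5R3–KO hearts 1.04 to 1.22. The summed level of 8 cardiomyocyte markers was 44755 and 35771 CPM in these mice, 19499.7 to 23813 CPM in the other ac-WT hearts and 14540.3 to 24398 CPM in ac-CYB5R3–KO hearts. Of the 8 markers, 6 were lower in ac-CYB5R3–KO hearts and 3 had an unadjusted p under 0.05, namely Myh6, Tnni3 and Myl2. The 4 fibroblast markers summed to 849 and 838 CPM in mice 2 and 3, while the remaining ac-WT hearts had 2289 to 3438 CPM and the ac-CYB5R3–KO hearts 2117 to 3223 CPM. The 4 macrophage markers summed to 109 and 108 CPM in mice 2 and 3, to 168 to 381 CPM in the remaining ac-WT hearts and to 201 to 311 CPM in the ac-CYB5R3–KO hearts. Sums of 4 endothelial markers (326 and 401 CPM) and of 4 smooth muscle markers (151 and 165 CPM) in mice 2 and 3 lay within those of the remaining ac-WT hearts (242 to 565 and 75.4 to 187 CPM). Among the smooth muscle markers, Myh11 and Acta2 were lower and Cnn1 higher in ac-CYB5R3–KO hearts at an unadjusted p under 0.05. Mitochondrial genes took 35.3% and 34.8% of the counts of mice 2 and 3, and between 24.0% and 30.1% in the other 10 hearts. In RNA of whole tissue, fewer cells of a type and less RNA per cell cannot be told apart, and the part of these differences in the results for the glucose and glycogen genes was not tested. Values without ac-WT mice 2 and 3 are also given, among others for the 6 genes that no longer had an unadjusted p under 0.05 without them.

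The muscle fructose bisphosphatase Fbp2 fell in ac-CYB5R3–KO hearts and was the 1 gene of the 36 with an adjusted p under 0.05 (2.78% of the genes, against 0.101% of all genes tested, 0.0616% being lower and 0.0392% higher). Of the 36 genes, 17 were lower and 19 higher, and their median log2 fold change was 0.01, beside a median of −0.01 over all genes tested. At an unadjusted p under 0.05, 8 were lower (22.2%, against 9.73% of all genes tested) and 4 were higher (11.1%, against 4.91%). At an unadjusted p under 0.01, 4 were lower (Fbp2, Eno3, Pgam2 and Phkg1, 11.1% against 3.27%) and 1 was higher (Gbe1, 2.78% against 1.33%). Groups did not overlap for Fbp2 and Pgam2, both lower (5.56%, against 1.04% of all genes tested), and for 0 genes on the higher side (0.51% of all genes tested). Scaling to library totals in place of TMM shifted the median of all genes to 0.26 on the log2 scale and turned the split at an unadjusted p under 0.05 to 4 lower (11.1%, against 2.06% of all genes tested) and 9 higher (25.0%, against 9.45%). Without ac-WT mice 2 and 3 the split was 4 lower (Fbp2, Pgam2, Eno3 and Phkg1; 10.8%, against 4.54% of all genes tested) and 3 higher (Gpi1, Gbe1 and Pkm; 8.11%, against 3.44%), and no gene of the group had an adjusted p under 0.05.

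**Figure D1:**
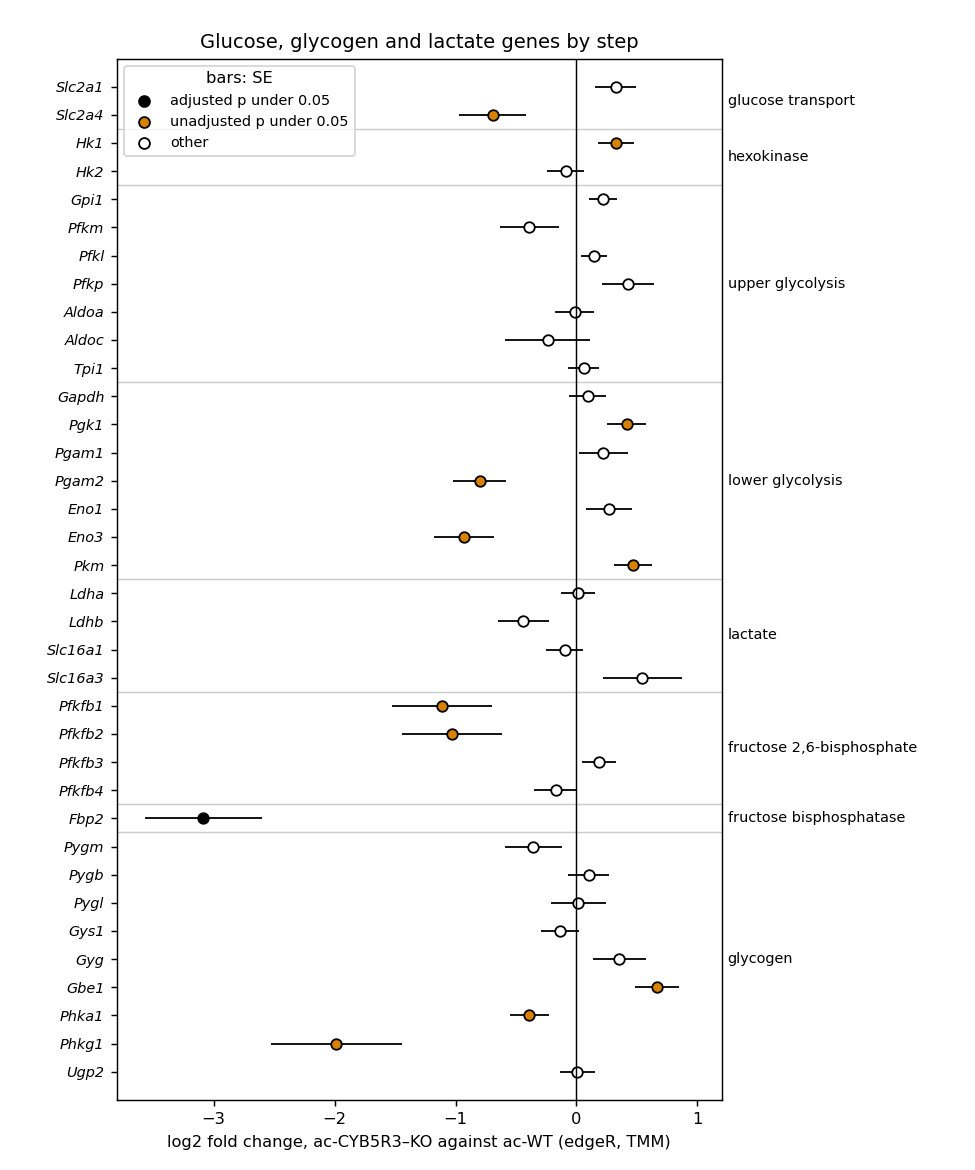
Log2 fold change of each of the 36 genes tested, ac-CYB5R3–KO against ac-WT, ordered by step, with bars of 1 SE and n = 6 mice per group. Filled black marks the adjusted p under 0.05 of Fbp2 at −3.08, orange marks an unadjusted p under 0.05 (7 further genes lower and 4 higher), and the other genes lie between −0.44 and 0.54.

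The 5 genes with an unadjusted p under 0.01 are shown with the bases just upstream of their transcription start. In muscle enzyme genes, transcription factors such as those of the MEF2 family are known to bind in this stretch. Each window holds the 250 bases before the start given by RefSeq on GRCm38.p6, printed 5′ to 3′ on the strand of the gene. Capitals mark matches to the E-box (CANNTG, which reads alike on both strands) and to the MEF2 motif (by its name, both strands), and a match is a description of the letters only. Fbp2 lies on the minus strand with its window at chr13:62858401-62858650, Pgam2 on the minus strand at chr11:5803797-5804046, Eno3 on the plus strand at chr11:70656926-70657175, Phkg1 on the minus strand at chr5:129879089-129879338 and Gbe1 on the plus strand at chr16:70313699-70313948.
Fbp2: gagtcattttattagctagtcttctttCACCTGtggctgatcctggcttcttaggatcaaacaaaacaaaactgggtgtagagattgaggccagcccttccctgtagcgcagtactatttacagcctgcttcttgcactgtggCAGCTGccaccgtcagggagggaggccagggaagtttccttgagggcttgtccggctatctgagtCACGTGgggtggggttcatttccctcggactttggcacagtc
Pgam2: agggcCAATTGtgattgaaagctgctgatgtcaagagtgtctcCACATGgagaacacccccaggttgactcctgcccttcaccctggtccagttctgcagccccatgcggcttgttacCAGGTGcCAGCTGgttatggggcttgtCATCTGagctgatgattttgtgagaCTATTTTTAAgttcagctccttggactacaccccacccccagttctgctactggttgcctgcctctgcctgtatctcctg
Eno3: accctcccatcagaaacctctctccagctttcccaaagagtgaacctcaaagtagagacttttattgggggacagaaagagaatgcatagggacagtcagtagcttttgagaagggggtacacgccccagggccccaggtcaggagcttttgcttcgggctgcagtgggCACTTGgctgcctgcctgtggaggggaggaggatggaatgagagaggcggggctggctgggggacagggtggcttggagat
Phkg1: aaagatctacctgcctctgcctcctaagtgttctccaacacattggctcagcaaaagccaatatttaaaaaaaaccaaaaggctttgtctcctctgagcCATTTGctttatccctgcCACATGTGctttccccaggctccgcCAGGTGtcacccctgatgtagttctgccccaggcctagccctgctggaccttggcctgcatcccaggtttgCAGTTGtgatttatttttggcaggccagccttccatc
Gbe1: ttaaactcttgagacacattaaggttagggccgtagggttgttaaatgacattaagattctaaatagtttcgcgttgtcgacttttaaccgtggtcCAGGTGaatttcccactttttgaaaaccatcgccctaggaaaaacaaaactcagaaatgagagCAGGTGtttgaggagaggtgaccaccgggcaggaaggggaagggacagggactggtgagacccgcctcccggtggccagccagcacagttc
The Pgam2 window held the MEF2 match of the group, 80 bases before the start, and 5 E-boxes, while Phkg1 also held 5 E-boxes, 2 of which overlap, Fbp2 held 3, Gbe1 2 and Eno3 1. Promoter windows were found for 36 of the 37 genes. An E-box stood in 25 of them (69.4%), beside 66.0% of all 27025 promoter windows of the same length, and a MEF2 match in 1 (2.78%), beside 3.01%. A second motif was searched for the hypoxia response element (ACGTG or GCGTG, both strands, the former of which can overlap an E-box), and it was held by 25 of the 36 windows (69.4%), beside 38.6% of all windows. The median GC content of the windows was 58.8% for the group and 52.0% for all promoters, and GC content was not taken into account in these shares.

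Glucose enters the cardiomyocyte through GLUT4, encoded by Slc2a4 and moved to the surface by insulin and contraction, and through GLUT1, encoded by Slc2a1. Slc2a4 ran from 78.3 to 284 CPM (median 118) among ac-WT mice and from 64.3 to 122 CPM (median 86.0) among ac-CYB5R3–KO mice. The groups overlapped, and the ac-WT mice 2 and 3, at 284 and 179 CPM, lay above all other hearts. Its log2 fold change was −0.69 ± 0.28 SE (unadjusted p = 0.0253, adjusted p = 0.271), and −0.19 without those mice (unadjusted p = 0.318). Slc2a1 differed by 0.33 ± 0.17 SE in the other direction (adjusted p = 0.395).

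Hexokinase traps glucose in the cell as glucose 6-phosphate. Hk1, the widespread form bound to mitochondria, ran from 82.9 to 134 CPM (median 92.3) among ac-WT mice and from 96.0 to 145 CPM (median 128) among ac-CYB5R3–KO mice, and 2 of the ac-CYB5R3–KO hearts were above the highest ac-WT heart. For Hk1 the log2 fold change was 0.33 ± 0.15 SE (unadjusted p = 0.0422, adjusted p = 0.322), and 0.30 without ac-WT mice 2 and 3 (unadjusted p = 0.0939). Hk2, the insulin-responsive form of heart and muscle, was at 72.4 ± 17.2 CPM (SD, n = 6) in the ac-WT group and 68.1 ± 9.46 CPM (SD, n = 6) after deletion of Cyb5r3, with an adjusted p of 0.805.

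No gene of upper glycolysis, from glucose 6-phosphate to the triose phosphates, had an unadjusted p under 0.05 among the 7 tested. Their log2 fold changes ran from −0.39 for Pfkm to 0.43 for Pfkp, the muscle and platelet forms of phosphofructokinase, the committed step of glycolysis. Without ac-WT mice 2 and 3, Pfkm was at −0.05. The liver form Pfkl was at 0.14 and glucose phosphate isomerase, Gpi1, at 0.22. Aldolase A, Aldoa, was the most abundant gene of the group per length of exon in both groups, with 548 and 542 CPM per kb, and its log2 fold change was −0.02 under TMM and 0.30 under library totals, against a median of 0.26 over all genes. Triose phosphate isomerase, Tpi1, differed by 0.06. Aldoc, the brain form of aldolase, had 5 to 25 counts per library and a log2 fold change of −0.24 ± 0.35 SE.

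Lower glycolysis, which earns the ATP, had 7 genes tested. At an unadjusted p under 0.05, 2 were lower (28.6%, against 9.73% of all genes tested) and 2 were higher (28.6%, against 4.91%). Pgam2, the muscle phosphoglycerate mutase, ran from 336 to 830 CPM (median 364) among ac-WT mice and from 205 to 294 CPM (median 271) among ac-CYB5R3–KO mice. All 6 ac-CYB5R3–KO hearts lay under the lowest ac-WT heart, which was not mouse 2 or 3. The log2 fold change was −0.80 ± 0.22 SE (unadjusted p = 0.00258, adjusted p = 0.179), and the exact permutation p was 0.00216, the smallest that this test can give with 6 mice in each group. Eno3, the muscle enolase that follows it in the pathway, ran from 499.9 to 1428 CPM (median 599) among ac-WT mice and from 314 to 536 CPM (median 388) among ac-CYB5R3–KO mice. Only ac-CYB5R3–KO mouse 2 reached into the ac-WT range. Eno3 had a log2 fold change of −0.93 ± 0.25 SE (unadjusted p = 0.00230, adjusted p = 0.176, exact permutation p = 0.00433). The 2 highest values of both genes were those of ac-WT mice 2 and 3, and without them the log2 fold changes were −0.41 for Pgam2 and −0.48 for Eno3, with unadjusted p of 0.00267 and 0.00613.

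In the same stretch of the pathway, both ATP-forming kinases had a log2 fold change over 0. Pkm, pyruvate kinase, ran from 345 to 448 CPM (median 398) among ac-WT mice and from 352 to 676 CPM (median 593) among ac-CYB5R3–KO mice. Of the ac-CYB5R3–KO hearts, 5 lay above the highest ac-WT heart. Its log2 fold change was 0.47 ± 0.16 SE (unadjusted p = 0.0107, adjusted p = 0.220). The gene makes the M1 and M2 enzymes by alternative splicing, and counts per gene do not separate them. Pgk1, phosphoglycerate kinase, ran from 201 to 371 CPM (median 250.5) among ac-WT mice and from 236 to 389 CPM (median 369) among ac-CYB5R3–KO mice, where mouse 5 at 236 CPM stood apart from the other 5 at 355 to 389 CPM. For Pgk1 the log2 fold change was 0.42 ± 0.16 SE (unadjusted p = 0.0219, adjusted p = 0.265), and 0.34 without ac-WT mice 2 and 3 (unadjusted p = 0.0591). Gapdh at 0.09, Pgam1 at 0.22 and Eno1 at 0.27, the last of these being the enolase of most tissues, had adjusted p of 0.802, 0.613 and 0.514.

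Lactate dehydrogenase interconverts pyruvate and lactate, and the monocarboxylate transporters carry lactate across the membrane. None of the 4 genes tested had an unadjusted p under 0.05. Ldhb, the heart form of the dehydrogenase, was at 658 ± 177 CPM (SD, n = 6) in the ac-WT group and 485 ± 131 CPM (SD, n = 6) in the ac-CYB5R3–KO group (log2 fold change −0.44 ± 0.21 SE, adjusted p = 0.351; −0.21 without ac-WT mice 2 and 3), and Ldha, the skeletal muscle form, at 466 ± 71.4 and 470 ± 70.4 CPM (SD, n = 6 each). The transporter genes Slc16a1 (MCT1) and Slc16a3 (MCT4) had log2 fold changes of −0.10 and 0.54 with adjusted p of 0.785 and 0.456, and 831 bases of Slc16a3 exons overlap Csnk1d on the opposite strand.

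Fructose 2,6-bisphosphate is the signal that switches phosphofructokinase on and fructose bisphosphatase off, and it is made and removed by the 4 bifunctional enzymes of the Pfkfb family. The heart form Pfkfb2 ran from 6.96 to 54.7 CPM (median 26.9) among ac-WT mice and from 8.77 to 18.4 CPM (median 12.2) among ac-CYB5R3–KO mice. The range of the ac-WT group enclosed that of the ac-CYB5R3–KO group. For Pfkfb2 the log2 fold change was −1.03 ± 0.42 SE (unadjusted p = 0.0269, adjusted p = 0.274), −0.46 without ac-WT mice 2 and 3 (unadjusted p = 0.255) and 0.00 with 1 surrogate variable in the model. Pfkfb1, the liver and skeletal muscle form, was at 0.815 to 5.36 CPM in ac-WT (median 1.498) and 0.627 to 1.29 CPM in ac-CYB5R3–KO hearts (median 0.9998). The 2 highest values belonged again to ac-WT mice 2 and 3, and without them the log2 fold change of −1.11 ± 0.42 SE (unadjusted p = 0.0185, adjusted p = 0.252) was −0.29 (unadjusted p = 0.279). Pfkfb3 and Pfkfb4, the inducible and testis forms, had log2 fold changes of 0.19 and −0.17 (adjusted p = 0.546 and 0.659).

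Fructose bisphosphatase runs the phosphofructokinase step backwards, towards glucose and glycogen. Fbp2 ran from 2.04 to 15.0 CPM (median 5.07, 108 to 429 counts per library) among ac-WT mice and from 0.399 to 1.08 CPM (median 0.789, 20 to 63 counts) among ac-CYB5R3–KO mice. The groups did not overlap, and the ac-WT mice 2 and 3 were the highest at 15.0 and 10.5 CPM, with the other ac-WT hearts at 2.04 to 6.01 CPM. The log2 fold change was −3.08 ± 0.48 SE, an 8.49-fold lower level (adjusted p = 0.0450, exact permutation p = 0.00216). Without ac-WT mice 2 and 3 it was −2.20 (unadjusted p = 2.2e-05, adjusted p = 0.0512). The call rested on an adjusted p close to the threshold, and the adjusted p was 0.0818 with a block for the replicate number, 0.115 by limma-voom and 0.0710 with 1 surrogate variable in the model. With single mice left out, the adjusted p was 0.0327, 0.0173 and 0.0386 without ac-WT mice 1, 4 and 6, 0.0531, 0.0865 and 0.0708 without ac-WT mice 2, 3 and 5, and 0.136, 0.101, 0.135, 0.131, 0.0877 and 0.0898 without ac-CYB5R3–KO mice 1 to 6 in turn, while the log2 fold change stayed between −3.28 and −2.66. Fbp1, which lies beside it on chromosome 13, had 0 to 27 counts per library and was not tested.

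Fbp2, Pgam2, Eno3 and Phkg1 are known to be abundant in skeletal muscle. The list of 10 skeletal muscle markers summed to 12.6 to 33.9 CPM in ac-WT hearts and 13.6 to 40.9 CPM in ac-CYB5R3–KO hearts, most of it Tnnt3. Of the 4 markers with enough counts to test, 3 were lower, 2 of them (Myh4 and Tnni2) at an unadjusted p under 0.05, and Tnnc2 had 0 counts in every ac-WT heart and at most 1 in ac-CYB5R3–KO hearts. Tnnt3 was the tested marker that was higher, with a log2 fold change of 0.52. The sum was 12.6 CPM in ac-WT mouse 2, 14.8 CPM in ac-WT mouse 3 and 14.3 to 33.9 CPM in the other ac-WT hearts. Fbp2, Pgam2, Eno3 and Phkg1 were highest in mice 2 and 3. A part of skeletal muscle tissue in the levels of these genes was not tested.

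Glycogen is built by glycogenin, glycogen synthase and the branching enzyme and broken down by glycogen phosphorylase, which phosphorylase kinase activates. On the side of synthesis, the branching enzyme Gbe1 ran from 9.91 to 19.6 CPM (median 13.2) among ac-WT mice and from 16.05 to 29.4 CPM (median 21.3) among ac-CYB5R3–KO mice. Of the ac-CYB5R3–KO hearts, 4 lay above the highest ac-WT heart. Its log2 fold change was 0.67 ± 0.18 SE (unadjusted p = 0.00267, adjusted p = 0.182, exact permutation p = 0.0108), and 0.52 without ac-WT mice 2 and 3 (unadjusted p = 0.0138). The muscle glycogen synthase Gys1 at −0.13, the glycogenin gene Gyg at 0.36 and Ugp2, which makes the UDP-glucose used for synthesis, at 0.01 had adjusted p of 0.706, 0.466 and 0.985.

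On the side of breakdown, Phkg1, the muscle catalytic subunit of phosphorylase kinase, ran from 1.29 to 11.7 CPM (median 1.96) among ac-WT mice and from 0.896 to 1.41 CPM (median 1.18) among ac-CYB5R3–KO mice. Mice 2 and 3 of the ac-WT group, at 9.22 and 11.7 CPM, were far above the other 4 at 1.29 to 2.09 CPM, and the lowest of these overlapped the ac-CYB5R3–KO range. The log2 fold change of −1.99 ± 0.54 SE (unadjusted p = 0.00260, adjusted p = 0.179) was −0.55 without those mice (unadjusted p = 0.0151), and 632 bases of its exons overlap Sumf2 on the opposite strand. Phka1, the muscle regulatory alpha subunit of the same kinase, ran from 12.7 to 26.7 CPM (median 20.5) among ac-WT mice and from 11.5 to 17.3 CPM (median 14.9) among ac-CYB5R3–KO mice. The groups overlapped, with 1 ac-CYB5R3–KO heart under the lowest ac-WT heart, and the log2 fold change was −0.39 ± 0.16 SE (unadjusted p = 0.0287, adjusted p = 0.279) or −0.21 without ac-WT mice 2 and 3 (unadjusted p = 0.182). The phosphorylases themselves, Pygm of muscle at −0.36, Pygb of brain at 0.10 and Pygl of liver at 0.02, had adjusted p of 0.493, 0.801 and 0.982, and Pygm was at −0.02 without ac-WT mice 2 and 3.

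**Figure D2:**
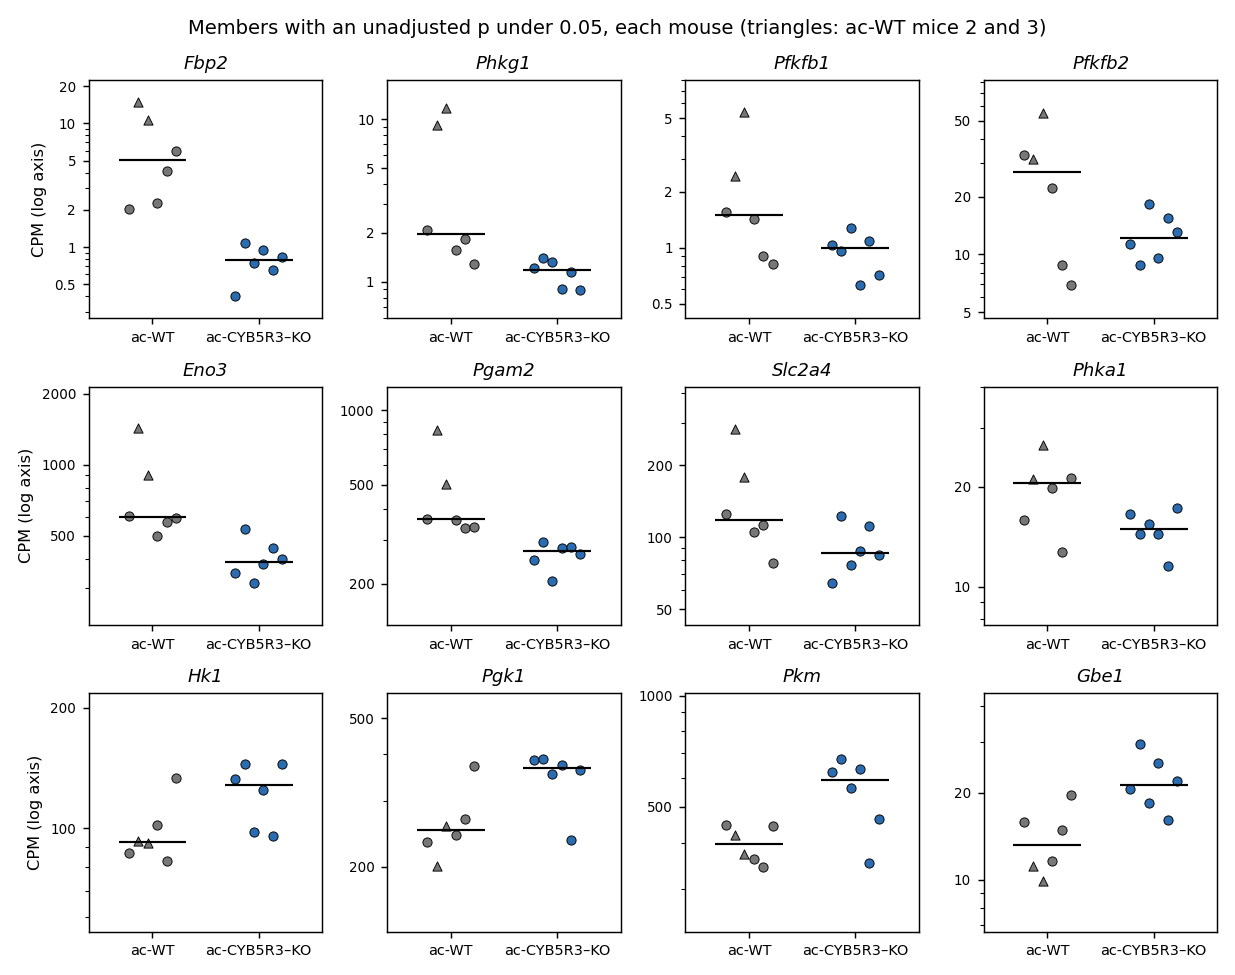
Level in each mouse, in CPM scaled by TMM factors on a log axis, of the 12 genes with an unadjusted p under 0.05, with a line at the median of each group and triangles for ac-WT mice 2 and 3. The groups are apart for Fbp2 and Pgam2, and the triangles lie on top of the ac-WT group for Fbp2, Phkg1, Pfkfb1, Eno3, Pgam2 and Slc2a4 but not for Hk1, Pgk1, Pkm and Gbe1.

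Per length of exon, the most abundant transcripts of the ac-WT hearts after Aldoa (548 CPM per kb) were Pgam2 (543), Eno3 (454), Gapdh (446) and Ldhb (419), and in ac-CYB5R3–KO hearts Aldoa (542) was followed by Gapdh (475), Pgam2 (312), Ldhb (309) and Eno3 (239). Pgam2 thus went from the second to the third place and Eno3 from the third to the fifth of the group. The ac-WT means behind these places include mice 2 and 3. For Eno3 these stood at 1428 and 902 CPM, with the other ac-WT hearts at 499.9 to 605 CPM. For Pgam2 they stood at 830 and 505 CPM, with the others at 336 to 366 CPM. Places without mice 2 and 3 were not determined. Fbp2 went from place 25, at 5.03 CPM per kb, to place 33, at 0.586 CPM per kb. The spread over mice is wide for these genes, and neighbouring places such as Aldoa and Pgam2 in ac-WT hearts differed by less than it. Fbp1 and Aldoc held the last places in both groups, under 0.1 CPM per kb.

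**Figure D3:**
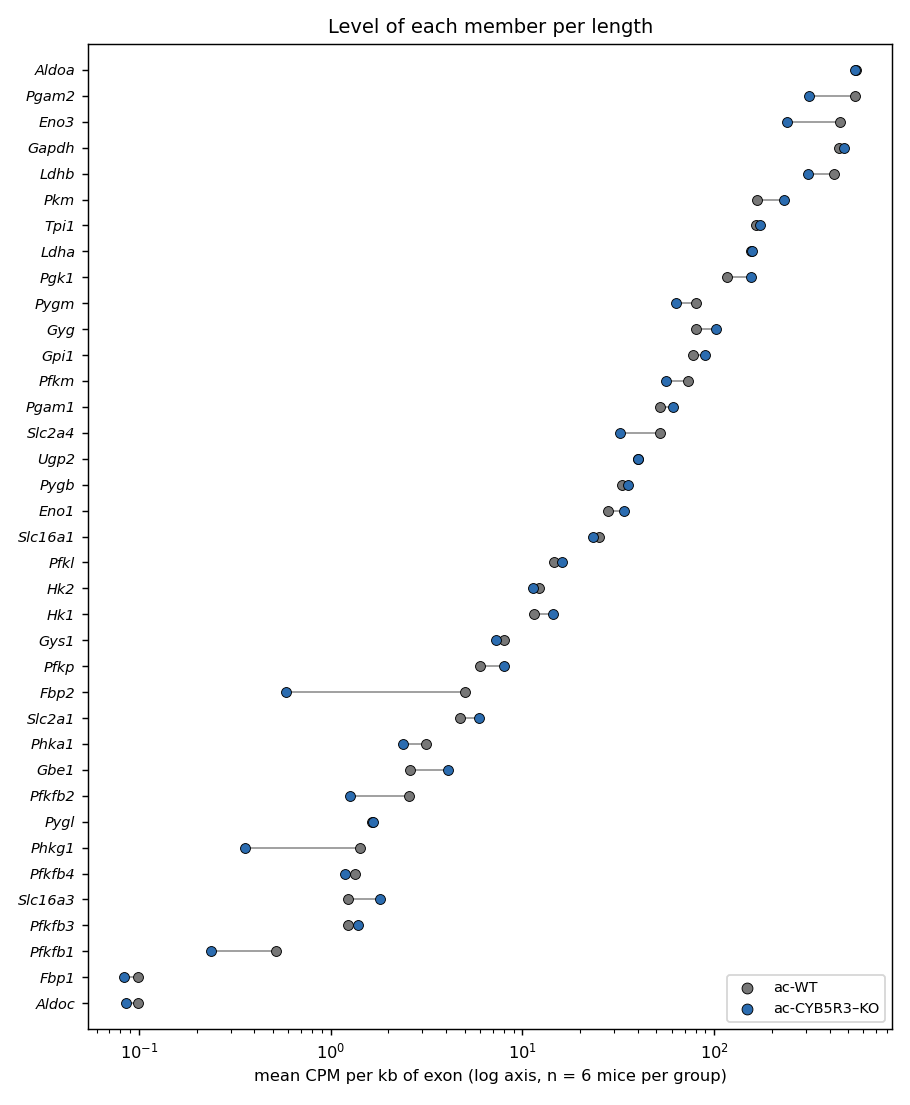
Mean level per length of exon of the 37 genes in ac-WT (grey) and ac-CYB5R3–KO (blue) hearts, in CPM per kb on a log axis, n = 6 mice per group, ordered by the ac-WT level. The levels run from about 0.1 CPM per kb for Fbp1 and Aldoc to 548 CPM per kb for Aldoa, and the widest gap between the groups is that of Fbp2.

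At 11 steps the group held at least 2 forms, and 1 of them was taken as the muscle or heart form. At the lactate dehydrogenase, lactate transporter and Pfkfb steps this was the form taken for heart, Ldhb, Slc16a1 or Pfkfb2. Ldha, Slc16a3 and Pfkfb1, which are also known from skeletal muscle, therefore counted with the other forms. The counts and ratios by form depend on this choice. The 11 forms so taken all had a log2 fold change under 0, from −3.08 for Fbp2 to −0.02 for Aldoa, with a median of −0.44, and 5 had an unadjusted p under 0.05 (Slc2a4, Pgam2, Eno3, Pfkfb2 and Fbp2; 45.5%, against 9.73% of all genes tested). Of the 14 other forms tested, 11 had a log2 fold change over 0, and the median was 0.17. At an unadjusted p under 0.05, 1 was lower (Pfkfb1; 7.14%, against 9.73% of all genes tested) and 1 higher (Hk1; 7.14%, against 4.91%). The count of muscle or heart forms that were lower was 7 of 11 under library totals (10 of 11 relative to the median of all genes), 6 of 11 with 1 surrogate variable, and 8 of 11 without ac-WT mice 2 and 3. These 2 mice were the 2 highest ac-WT hearts for 9 genes of the group, 7 of them muscle or heart forms (Slc2a4, Pfkm, Pgam2, Eno3, Ldhb, Fbp2 and Pygm), beside Pfkfb1 and Phkg1.

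**Figure D4:**
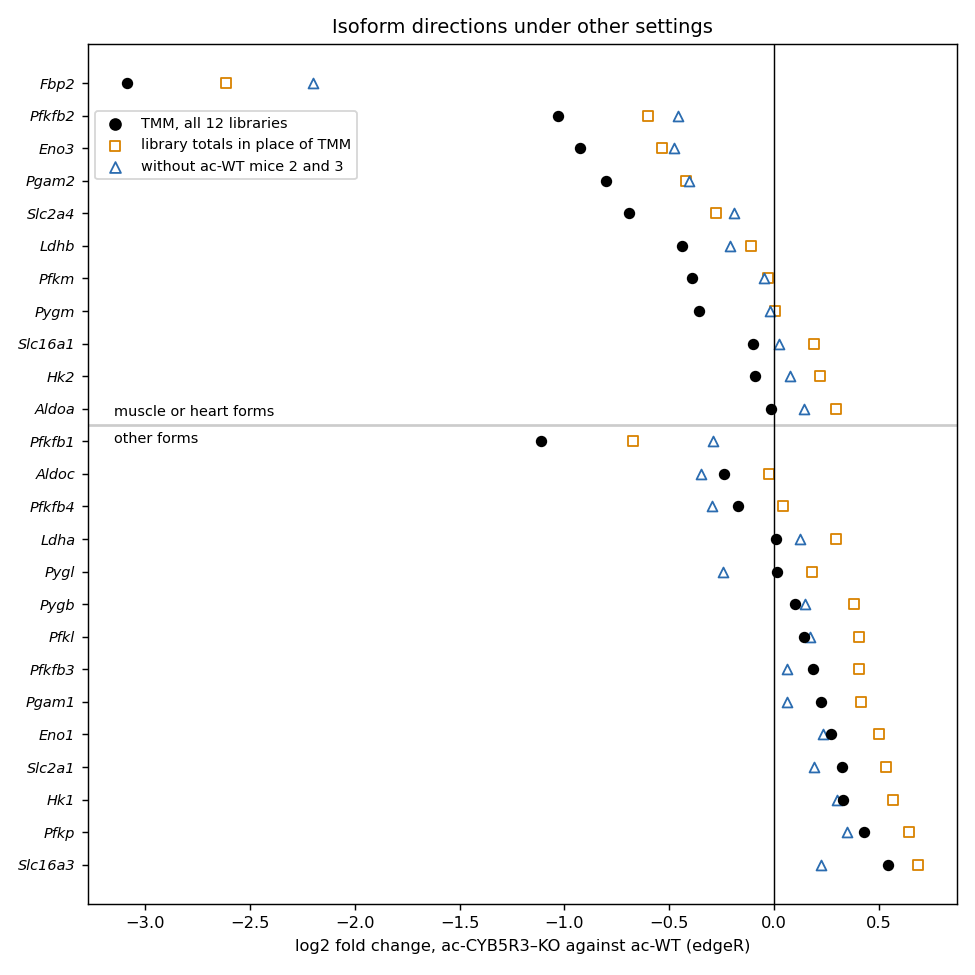
Log2 fold change of the muscle or heart forms (above the grey line) and of the other forms (below it) under TMM with all 12 libraries (black), under library totals (orange squares) and without ac-WT mice 2 and 3 (blue triangles). All 11 muscle or heart forms lie left of 0 under TMM, against 7 under library totals and 8 without these mice, and Fbp2, Pfkfb2, Eno3, Pgam2, Slc2a4, Ldhb and Pfkm lie left of 0 in all 3.

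The ratio of the forms within a library does not depend on its scaling factor. The ratio of the muscle or heart form to the other forms was lower in ac-CYB5R3–KO hearts at 10 of the 11 steps, aldolase being the exception (log2 difference 0.28). Two-sided exact permutation tests gave a p under 0.05 for 3 ratios. For enolase, Eno3 over Eno1, the log2 ratio of counts was 1.51 to 3.52 (median 2.25) among ac-WT mice and 0.54 to 1.83 (median 1.07) among ac-CYB5R3–KO mice, and 4 of the 6 ac-CYB5R3–KO hearts lay under every ac-WT heart. The log2 difference was −1.10 (exact p = 0.0173). For phosphoglycerate mutase, Pgam2 over Pgam1, the log2 ratio was 1.28 to 3.49 (median 2.01) among ac-WT mice and 0.75 to 1.76 (median 1.13) among ac-CYB5R3–KO mice, a log2 difference of −0.98 (exact p = 0.0216) with 4 of 6 hearts under every ac-WT heart. For hexokinase, Hk2 over Hk1, it was −0.79 to 0.16 (median −0.51) among ac-WT mice and −0.98 to −0.59 (median −0.91) among ac-CYB5R3–KO mice, a log2 difference of −0.40 (exact p = 0.0195), again with 4 of 6 hearts under every ac-WT heart. Adjusted over the 11 ratios, these p were 0.0794 each, so that no ratio passed. Without ac-WT mice 2 and 3 the log2 differences were −0.72 for enolase, −0.49 for phosphoglycerate mutase and −0.23 for hexokinase (exact p = 0.0714, 0.100 and 0.0667).

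Expressed per length of exon, Eno3 made up a median of 93.7% of the enolase transcripts of both genes in ac-WT and 87.0% in ac-CYB5R3–KO hearts. The share of Pgam2 was 89.6% and 82.6%, that of Hk2 50.1% and 43.2%, and that of Slc2a4 among both transporters 90.5% and 84.2%. Length here is that of all annotated exons of a gene joined, 8532 bases for Hk1 and 5969 for Hk2. It can exceed the length of the transcripts expressed, and the shares depend on it. By counts alone, the ratio of Hk2 to Hk1 was 0.73 in ac-WT and 0.55 in ac-CYB5R3–KO hearts (from the mean log2 ratios). The muscle or heart form was the larger share of enolase, mutase and transporter in both groups. Among the ratios that did not reach an exact p of 0.05, Fbp2 over Fbp1 had the largest log2 difference, −2.16 (exact p = 0.110), and it rested on the 0 to 27 counts of Fbp1. The log2 differences of the other ratios were −0.94 for Slc2a4 over Slc2a1, −0.81 for Slc16a1 over Slc16a3, −0.69 for Pfkfb2 over the other 3 Pfkfb genes, −0.68 for Pfkm over Pfkl and Pfkp, −0.46 for Ldhb over Ldha and −0.40 for Pygm over Pygb and Pygl, with exact p between 0.0628 and 0.197. Without ac-WT mice 2 and 3 they were, in the same order, −0.40, −0.26, −0.14, −0.37, −0.36 and −0.14, with exact p between 0.257 and 0.795.

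**Figure D5:**
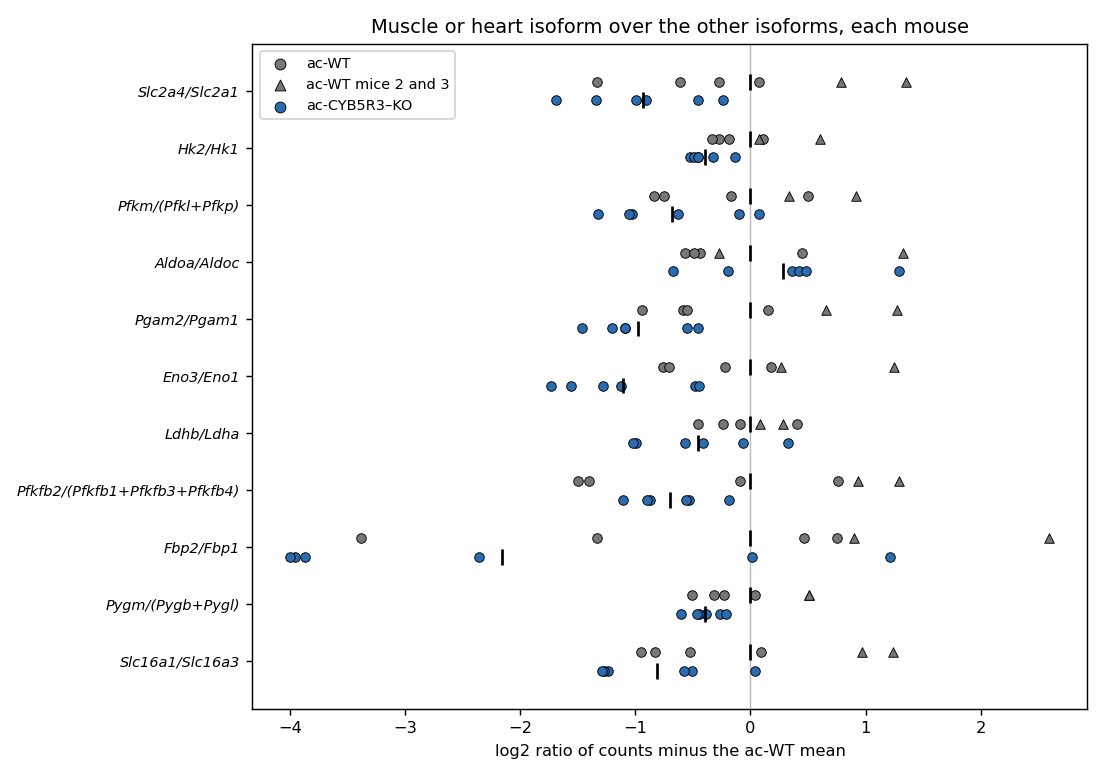
Log2 ratio of the counts of the muscle or heart form to those of the other forms in each mouse, as the difference from the ac-WT mean, with a bar at each group's mean and triangles for ac-WT mice 2 and 3. The mean of the ac-CYB5R3–KO hearts lies left of 0 at 10 of 11 steps, and the groups overlap at all 11.

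The counts of several genes may not be their own. Aldoa, Tpi1, Gapdh, Pgk1, Pgam1, Eno1 and Ldha have processed copies elsewhere in the mouse genome that can draw or lose reads, and how the counting treated such reads and the strand was not given in the sources used here. Exons of Gpi1, Pfkp, Hk1, Pfkfb1 and Pfkfb2 overlap a gene on the opposite strand by 741, 372, 157, 123 and 154 bases. Those of Gys1, Slc2a1, Ugp2 and Tpi1 do so by 310, 105, 78 and 34 bases. Reads of the partners cannot be told apart there if strand was not used.

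A further 48 genes around the same pathways, such as the glucose 6-phosphate, pyruvate and glycogen regulators, were listed by name, and 39 had enough counts to test. Of these 20 were lower and 19 higher, with 2 lower (5.13%, against 9.73% of all genes tested) and 5 higher (12.8%, against 4.91%) at an unadjusted p under 0.05 and 0 at an adjusted p under 0.05 by edgeR, DESeq2 or limma-voom. Under library totals the split at an unadjusted p under 0.05 was 0 lower (against 2.06% of all genes tested) and 13 higher (33.3%, against 9.45%), and without ac-WT mice 2 and 3 it was 2 lower (5.13%, against 4.54%) and 4 higher (10.3%, against 3.44%). Mpc2, a subunit of the carrier that brings pyruvate into mitochondria, ran from 169 to 378 CPM (median 192) among ac-WT mice and from 124 to 161 CPM (median 155) among ac-CYB5R3–KO mice. The groups did not overlap, and the log2 fold change was −0.58 ± 0.19 SE (unadjusted p = 0.0072, adjusted p = 0.203, exact permutation p = 0.00216). Slc2a12, the glucose transporter GLUT12, ran from 1.71 to 4.16 CPM (median 2.58) among ac-WT mice and from 1.18 to 1.96 CPM (median 1.597) among ac-CYB5R3–KO mice, with a log2 fold change of −0.73 ± 0.22 SE (unadjusted p = 0.00522, adjusted p = 0.194). The 5 genes on the higher side were Bpgm, Ppp1r3e, Ppp1r3c, Tigar and Gsk3b, with log2 fold changes of 0.98, 0.63, 0.29, 0.27 and 0.21. Ppp1r3c and Ppp1r3e encode subunits that target protein phosphatase 1 to glycogen, Gsk3b a kinase of glycogen synthase, and Tigar a fructose bisphosphatase-like enzyme induced by p53. Bpgm makes the 2,3-bisphosphoglycerate of red cells, and the 4 red cell markers measured were all higher in ac-CYB5R3–KO hearts, 2 of them (Hba-a1 and Alas2) at an unadjusted p under 0.05, with sums of 114 to 2299 CPM in ac-WT and 677 to 6263 CPM in ac-CYB5R3–KO hearts. Their part in the level of Bpgm was not tested. Of the enzymes that release free glucose or start gluconeogenesis in liver, Pck1 and G6pc had at most 4 and 1 counts per library and were not tested.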

How the data were processed

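Stranded total RNA libraries of 12 whole hearts were read as 75 bp unpaired reads. The authors deposited raw read counts, a whole number per Ensembl gene and library, neither normalized nor filtered. Per the submitters' processing notes the tools were STAR and featureCounts with GRCm39, whereas the paper's methods name the mm9 build and Cufflinks. The strand setting and the annotation release were not given in the sources used here. Symbols were matched for 31027 of 53700 identifiers. Lengths (all annotated exons of a gene joined) and overlaps of exons came from the GENCODE annotation of NCBIM37. Promoter windows came from RefSeq on GRCm38.p6 (the first listed for a gene), and no coordinate was converted.

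Groups were taken from the labelled genotypes. Counts were filtered by filterByExpr (minimum count 10), scaled by TMM and tested by the quasi-likelihood model of edgeR 4.0.16 (R 4.3.3; two-sided; group as the only term), as the study compared the groups pairwise. Single genes were also compared by an exact permutation test on CPM over all arrangements of the mice, and the 11 form ratios likewise, on log2 ratios with 0.5 counts added to each side. The script was tested on simulated data. The alternatives were library totals in place of TMM, DESeq2 1.42.0, limma-voom (limma 3.58.1), no filter, a minimum of 10 counts for each library, 1 surrogate variable (sva 3.50.0), a block for the replicate number, each mouse left out in turn, and both libraries with the lowest TMM factors (ac-WT mice 2 and 3) left out together. The labels give no separate litters or batches. At this depth the spread between mice limits the precision, except for genes with few counts, and reads were counted without molecular identifiers, so that they need not be separate molecules.

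Every gene of the group is accounted for, and values by mouse are given for an unadjusted p under 0.05. Of the further pathway genes, those with an unadjusted p under 0.01 are given with values. The genes and lists were chosen with earlier results of these data known.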

Additional observations from a re-analysis of the deposited data

Results flagged for a closer look

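Among 72 sets of 6 values (the 36 genes tested, in each group), 6 held a mouse apart from the other 5 by Dixon's criterion, and chance gives this in about 1 in 20 sets. In ac-WT mouse 2, Aldoa was at 2247 CPM (the other ac-WT hearts 1261 to 1476), Gapdh at 1439 CPM (875 to 1020) and Pgam2 at 830 CPM (336 to 505). In ac-WT mouse 3, Pfkfb1 was at 5.36 CPM (0.815 to 2.45). In ac-CYB5R3–KO mouse 5, Pgk1 was at 236 CPM (355 to 389), and in ac-CYB5R3–KO mouse 2, Pygb was at 272.5 CPM (129.6 to 179). The TMM factor of ac-WT mouse 2 was the lowest of the 12 libraries, at 0.570, and its part in these values was not tested.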

How the results depend on the processing

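The number of genes with an adjusted p under 0.05, 1 in the fit reported, was 5 with DESeq2 (Fbp2, Pgam2, Eno3, Gbe1 and Phkg1, where DESeq2 called 437 genes in all against 18 by edgeR) and 0 with 1 surrogate variable, with limma-voom, with the replicate number as a block and without ac-WT mice 2 and 3. The log2 fold change of Fbp2 in these last fits was −2.35, −2.66, −2.83 and −2.20, with adjusted p of 0.0710, 0.115, 0.0818 and 0.0512. Mice that share a number were not the same animal, and the correlation of their deviations was −0.08 to 0.35 (mean 0.14, against −0.03 for other pairs) and over 0.1 in 4 of 6 pairs, so that the numbers were not taken as pairs. With the replicate block 7 genes were higher at an unadjusted p under 0.05 in place of 4 (19.4%, against 6.02% of all genes tested). Slc2a1, Pfkp and Slc16a3 were added. On the lower side there were 8 (22.2%, against 8.68%), where Ldhb took the place of Pfkfb2 (unadjusted p = 0.0487 and 0.0916). Aldoa changed sign with the block (0.0061) and with no filter (0.013). With 1 surrogate variable 5 genes were lower (13.9%, against 5.19% of all genes tested) and 2 higher (5.56%, against 2.66%) at that threshold. In this fit 8 genes changed sign, namely Pfkfb2 (0.0019), Pygl (−0.36), Pfkm (0.050), Pygm (0.066), Hk2 (0.067), Aldoa (0.13), Pgam1 (−0.059) and Ugp2 (−0.048). Under library totals 4 were lower (11.1%, against 2.06% of all genes tested) and 9 higher (25.0%, against 9.45%). The median of the group was then 0.28, and 6 genes changed sign, namely Aldoa (0.30), Hk2 (0.22), Slc16a1 (0.19), Gys1 (0.16), Pfkfb4 (0.044) and Pygm (0.0044). Without ac-WT mice 2 and 3, 4 were lower (10.8%, against 4.54% of all genes tested) and 3 higher (8.11%, against 3.44%). Without these mice 6 genes changed sign, namely Pygl (−0.24), Aldoa (0.14), Hk2 (0.077), Slc16a1 (0.023), Ugp2 (−0.011) and Gys1 (0.010), and the log2 ratios of Eno3, Pgam2 and Hk2 to their other forms were −0.72, −0.49 and −0.23. With 5 counts added to each side, Fbp2 over Fbp1 was at −2.35 (exact p = 0.0195). Leaving out single mice gave 4 to 9 genes lower (11.1% to 25%, against 6.17% to 11.6% of all genes tested) and 3 to 8 higher (8.33% to 22.2%, against 3.75% to 7.08%). The lower side held 4 without ac-WT mouse 3 (6.9% of all genes) and 5 without mouse 2 (6.17%), and the higher side 8 without ac-WT mouse 6 (7.08%). In these fits 0 or 1 gene had an adjusted p under 0.05, and the log2 fold change of Fbp2 was −3.28 to −2.66. It turned the sign of Hk2 (−0.16 to 0.051), Aldoa (−0.063 to 0.14), Ldha (−0.047 to 0.090), Pygb (−0.081 to 0.17), Pygl (−0.11 to 0.16) and Ugp2 (−0.066 to 0.078). The ranges of the log2 ratios were −0.85 to −0.50 for Pfkm, −2.84 to −1.64 for Fbp2, −0.50 to −0.29 for Pygm, −1.20 to −0.67 for Slc2a4, −0.998 to −0.56 for Slc16a1, −0.99 to −0.44 for Pfkfb2, −0.61 to −0.34 for Ldhb and −1.16 to −0.72 for Pgam2. Of these, Pfkm, Fbp2 and Pygm passed an exact p of 0.05 without ac-WT mouse 4, Slc2a4, Pygm and Slc16a1 without ac-WT mouse 6, Fbp2 without ac-CYB5R3–KO mouse 4 and Ldhb without ac-CYB5R3–KO mouse 5, and Pgam2 lost it without ac-CYB5R3–KO mouse 1 or 3. The cause of these changes was not tested.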
